A study of Homo sapiens with 40 samples.

Results

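Matrix metalloproteinases (MMPs) are zinc-dependent enzymes that cut the proteins of the extracellular matrix. Their genes were taken here as every symbol of the deposited count table that reads MMP followed by digits, and 7 of the 12655 genes in the table met this rule. They are MMP1, MMP10, MMP14, MMP15, MMP16, MMP2 and MMP28. RefSeq lists 22 such symbols, and the other 15 were not analysed here. MMP24OS and MMP25-AS1, which are non-coding transcripts, are not members.

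RNA was measured in spheroids of 2 human squamous carcinoma lines, Kyse30, from the oesophagus, and FaDu, from the hypopharynx. Both lines carried Dendra2, a fluorescent protein that light turns from green to red, and every spheroid lay in type I collagen for 72 h. Each line had 5 groups of 4 libraries. The first group received 9 nM epidermal growth factor (EGF) with 100 nM AZD6244, a MEK inhibitor, and the second received 9 nM EGF with 10 µg/mL cetuximab, an antibody against the EGF receptor. Spheroids with 9 nM EGF alone gave separate libraries of invasive and of non-invasive cells, a division that rests on the sample titles, and the last group was kept in serum-free medium without EGF. Cells of the drug and serum-free groups are labelled unselected, so each of these groups differs from the non-invasive cells in sorting as well as in treatment, and the effects of sorting and treatment cannot be told apart. The collagen was digested with a bacterial collagenase before sorting. Cultured spheroids of 1 cell line contain no fibroblasts or leukocytes, which supply many MMPs in tumours, and of the lists of markers only 2 of 11 fibroblast genes (COL1A1 and ACTA2), 1 of 8 leukocyte genes (CD68) and 1 of 4 endothelial genes (CDH5) were in the table. Of 10 squamous epithelial markers, 9 were in the table, and their summed level was 562 to 2658 CPM in Kyse30 and 3491 to 6555 CPM in FaDu. The sum does not stand for each marker. In non-invasive cells KRT5 had 0 counts in Kyse30 and a mean of 76.8 CPM in FaDu, and KRT17 averaged 3.05 and 2318 CPM. KRT6A, EPCAM, CDH1 and DSG3 had higher means in these cells of Kyse30 than in those of FaDu. The Kyse30 sum there came mostly from SFN (mean 730 CPM), CDH1 (284 CPM) and EPCAM (270 CPM).

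Libraries held 463124 to 4534339 counts in Kyse30 and 2312126 to 5669262 in FaDu. The first invasive library of Kyse30 held the 463124 counts, with 5281 genes detected against at least 11635 in each other Kyse30 library. Results whose call or size turned on this shallow library are given with and without it. Mitochondrial genes gave 26.6% of its counts, and 19.65% to 23.8% in the 4 serum-free libraries of Kyse30. Their share was 17.4% and 19.25% in non-invasive libraries 1 and 3 of Kyse30, against 8.22% and 8.95% in non-invasive libraries 2 and 4. Levels are given in CPM, the read count of a gene after correction for sequencing depth within each line, and they are compared between groups for 1 gene, not between genes. In bulk libraries, fewer cells that use a gene and less RNA per cell cannot be told apart.

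MMPs are made as inactive precursors whose prodomain must be removed, and their activity is held down by the tissue inhibitors of metalloproteinases (TIMPs). MMP1 is the interstitial collagenase, which cleaves fibrillar type I collagen, and MMP10 is a stromelysin that cuts non-collagen matrix proteins and activates other MMP precursors. MMP14, MMP15 and MMP16 are anchored in the plasma membrane, where MMP14 activates the gelatinase MMP2, while MMP28 is a secreted member found in keratinocytes. Transcription of MMP1 and MMP10 is a classic response to growth factors through MEK and ERK, which act on AP-1 and ETS transcription factors.

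MMP10 and MMP1 lie beside each other on chromosome 11 (GRCh38, minus strand), at 102770502 to 102780628 and 102789919 to 102798160, with 9290 bases between them. They are the 2 genes in the table from a cluster of 9 MMP genes between 102520508 and 102955732. MMP14 lies on chromosome 14 at 22836585 to 22847758, MMP2 and MMP15 on chromosome 16 at 55478830 to 55506691 and 58025754 to 58046901, and MMP28 on chromosome 17 at 35756249 to 35795641. The gene body of MMP28 overlaps TAF15, which is also in the table and is read from the opposite strand. Whether reads were counted by strand is not stated, so reads from the stretch that the genes share may not be told apart. How many reads lay there was not tested.

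The 250 bases before the transcription start are shown for 3 of the 7 MMP genes, and their response to EGF played no part in this choice. The promoter reference held no entry for MMP1, MMP2 and MMP28, and MMP16 is not shown. MMP10 was higher with EGF in both lines, whereas the membrane-type genes MMP14 and MMP15 were not called higher with it in either. The sequences come from RefSeq (GRCh38.p14), with capitals marking an AP-1 motif (TGANTCA) or a TATA box (TATAAA).
MMP10: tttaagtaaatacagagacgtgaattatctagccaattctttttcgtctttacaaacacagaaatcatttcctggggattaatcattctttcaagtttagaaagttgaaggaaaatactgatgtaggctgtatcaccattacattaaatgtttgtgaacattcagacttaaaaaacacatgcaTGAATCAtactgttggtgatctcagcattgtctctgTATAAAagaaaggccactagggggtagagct
MMP14: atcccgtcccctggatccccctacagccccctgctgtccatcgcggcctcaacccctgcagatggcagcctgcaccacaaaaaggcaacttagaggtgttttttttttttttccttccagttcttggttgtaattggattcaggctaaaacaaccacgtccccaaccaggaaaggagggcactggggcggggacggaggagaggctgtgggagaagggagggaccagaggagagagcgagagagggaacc
MMP15: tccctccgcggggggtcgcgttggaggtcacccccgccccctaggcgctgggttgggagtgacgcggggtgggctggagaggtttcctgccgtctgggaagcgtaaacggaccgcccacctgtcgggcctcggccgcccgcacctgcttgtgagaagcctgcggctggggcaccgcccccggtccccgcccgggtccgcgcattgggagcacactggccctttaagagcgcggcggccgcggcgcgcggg
The MMP10 window is chr11:102780629-102780878 on the minus strand, the MMP14 window is chr14:22836335-22836584 on the plus strand, and the MMP15 window is chr16:58025504-58025753 on the plus strand. Both strands were searched. In MMP10 the AP-1 match (TGAATCA) lay 67 to 61 bases before the start and the TATA match 31 to 26 bases before it, and the matches did not overlap. The MMP14 and MMP15 windows held neither, and none of the windows held AGGAAG, the PEA3 form of the ETS motif. Other forms of the ETS motif were not searched. Of 35116 RefSeq promoters cut to the same length, 6.57% held the AP-1 motif, 10.7% the TATA box and 28.7% AGGAAG. G and C made up 34.4% of the MMP10 window, 56.8% of the MMP14 window and 74.8% of the MMP15 window, beside a median of 58% over all promoters. A match is a run of letters and no measure of binding, and a missing match says nothing of the factor.

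In FaDu, MMP1 and MMP10 rose with EGF and fell with either drug, while MMP14, MMP15 and MMP16 were not called in any of these comparisons. A gene is called here at an adjusted p under 0.05 by the quasi-likelihood test of edgeR, with Benjamini-Hochberg correction over all tested genes of the line. MMP2 and MMP28 were below the expression filter in FaDu, so 5 of the 7 genes were tested. Of these 5, 2 were higher in non-invasive cells than in serum-free spheroids, beside 50.0% of all tested genes called in either direction. With cetuximab 2 were lower than in non-invasive cells, beside 8.56% of all genes, and with the MEK inhibitor 2 were lower, beside 29.7% of all genes. The comparison of invasive with non-invasive cells called none of the 5, beside 3.00% of all genes. The comparisons with non-invasive cells share those 4 libraries.

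Kyse30 gave a different set of calls from its 7 tested MMP genes. Non-invasive cells had 1 MMP gene higher (MMP10) and 2 lower (MMP15 and MMP16) than serum-free spheroids, beside 12.9% of all genes called. The MEK inhibitor lowered 2 (MMP1 and MMP10) and raised 2 (MMP15 and MMP16) relative to non-invasive cells, beside 4.56% of all genes. Cetuximab raised 1 (MMP16), beside 4.93% of all genes. Invasive against non-invasive cells called none, beside 0.409% of all genes. Without the shallow library more was called throughout the line, and the shares of all genes became 27.8% for EGF, 14.4% for the MEK inhibitor, 17.1% for cetuximab and 2.10% for invasive cells. The MMP calls then came to 3, 5, 4 and 2. The plot of fitted changes sets both lines side by side.

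**Figure D1:**
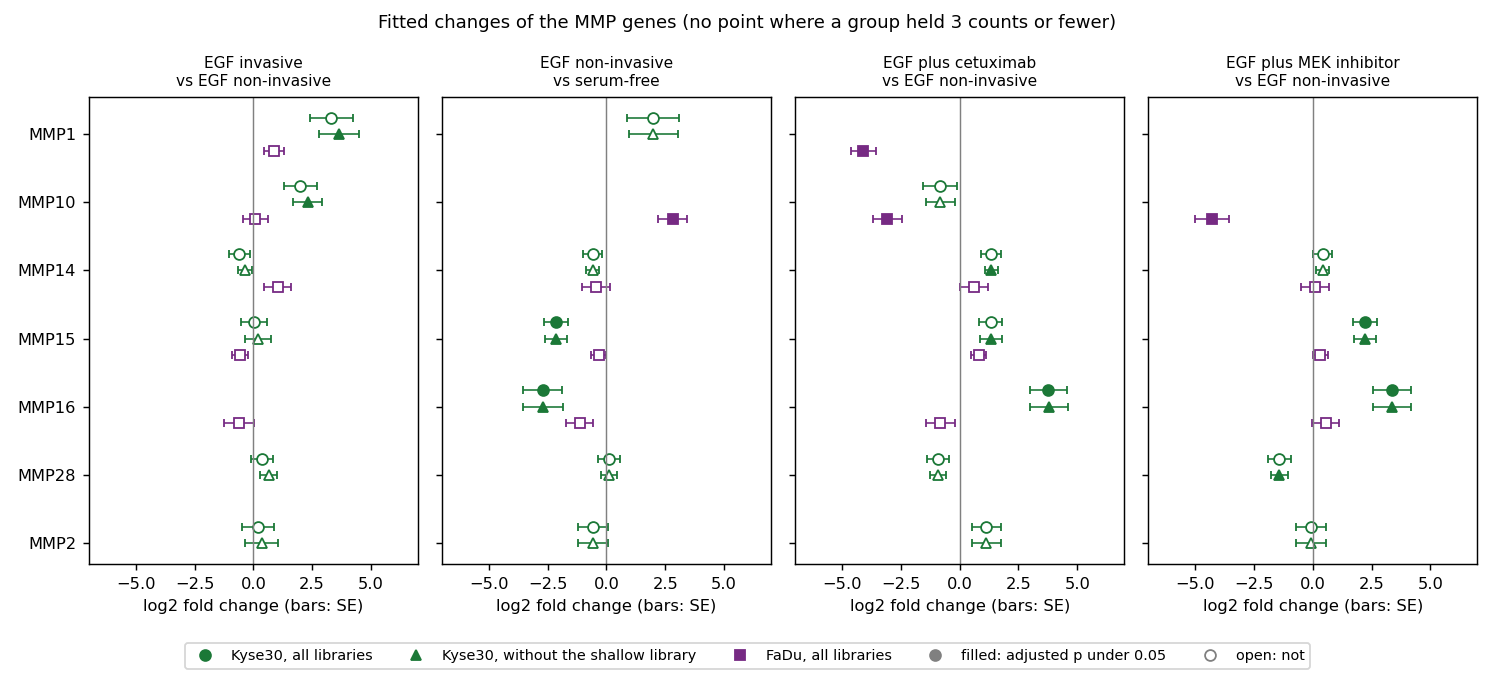
Fitted log2 fold changes (bars: SE) of the MMP genes in 4 comparisons, with circles for all Kyse30 libraries, triangles for Kyse30 without its shallow library and squares for FaDu. Filled symbols have an adjusted p under 0.05. No point is drawn where a gene was not tested or a group held 3 counts or fewer, which leaves out, among others, MMP1 with the MEK inhibitor in both lines. MMP1 and MMP10 lie left of 0 with cetuximab in FaDu, and MMP15 and MMP16 lie right of 0 with the MEK inhibitor in Kyse30.

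MMP1, the collagenase, was nearly silent in FaDu without EGF and abundant with it. Its CPM in the 4 invasive libraries was 58.2, 145, 208 and 144, and in the 4 non-invasive libraries 43.7, 73.4, 93.85 and 93.86. Serum-free spheroids had 0, 0, 0 and 0.504 CPM, which is 2 counts in all, against 1319 counts in non-invasive cells. No serum-free library overlapped a non-invasive one. Summed counts over summed library totals were 507 times as high in non-invasive cells as in serum-free spheroids (95% interval 140.1 to 4191, from counting error only). The edgeR adjusted p was 3.11e-07. Invasive cells averaged 139 ± 61.65 CPM and non-invasive cells 76.2 ± 23.7 CPM (SD, n = 4 each). The ranges of these 2 groups overlapped, and the log2 difference of 0.86 ± 0.42 (SE) had an edgeR adjusted p of 0.329.

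Both drugs lowered MMP1 in FaDu, and the MEK inhibitor took it further down. Under the MEK inhibitor its CPM was 0, 0, 0.207 and 0, which is 1 count in all. Cetuximab spheroids had 8.27, 7.56, 2.81 and 0.344 CPM, or 77 counts. Every library of each drug lay below every non-invasive library. The MEK inhibitor left MMP1 1162-fold lower than in non-invasive cells (counting interval 208 to 45930; edgeR adjusted p = 4.95e-07). Relative to non-invasive cells, cetuximab gave a log2 fold change of -4.10 ± 0.54 with an edgeR adjusted p of 7.49e-05.

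Set directly against each other, the drugs differed for MMP1 in FaDu. The level was 65.6-fold lower with the MEK inhibitor than with cetuximab (counting interval 11.4 to 2623), with an edgeR adjusted p of 0.00693. It was the 1 MMP gene called of 5 in this comparison, beside 19.7% of all genes. MMP1 with cetuximab remained above serum-free spheroids, by 28.6-fold (counting interval 7.66 to 240.5; edgeR adjusted p = 0.00596), 1 of 2 MMP genes called there beside 43.8% of all genes. limma-voom gave adjusted p values of 0.128 for the first of these comparisons and 0.116 for the second, while the other 14 of 15 alternatives for each gave values under 0.05, from 3.68e-05 and 0.00019 upward. In fits of the 2 groups alone MMP1 fell below the filter in both comparisons and was not called. The MEK inhibitor against serum-free spheroids called none of the 5 genes by edgeR, DESeq2 or limma-voom, beside 19.4% of all genes by edgeR, and 0 had an unadjusted p under 0.05. MMP1 had 1 count and 2 counts in these groups, which gives no fold.

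In Kyse30, MMP1 had its highest levels in the invasive cells. The invasive libraries had 2.15, 15.5, 48.4 and 42.0 CPM, of which 2.15 CPM is 1 count in the shallow library. The non-invasive libraries had 4.40, 3.03, 3.85 and 0.225 CPM. The 3 deeper invasive libraries lay above every non-invasive library, and the shallow one lay among them. Over all libraries invasive cells averaged 27.0 ± 21.9 CPM and non-invasive cells 2.88 ± 1.86 CPM (SD, n = 4 each), and the log2 fold change of 3.32 ± 0.90 had an edgeR adjusted p of 0.111. With the shallow library left out, invasive cells averaged 35.3 ± 17.4 CPM (SD, n = 3), the log2 fold change was 3.64 and the edgeR adjusted p was 0.0256. Over 17 alternatives the adjusted p ran from 0.0049 to 0.971, with 3 under 0.05. Neither DESeq2 nor limma-voom called any MMP gene in this comparison with the shallow library in, and 2 of the 7 had an unadjusted p under 0.05 by edgeR.

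The drugs and serum-free medium brought MMP1 to a few counts in Kyse30. The MEK inhibitor group had 0 counts in all 4 libraries, a level of at most 0.21 CPM for the group at a floor of 3 counts. Cetuximab spheroids had 3 counts, all in 1 library (0.69 CPM), and serum-free spheroids had 7 counts, all in their library 4 (2.97 CPM). Non-invasive cells had 39 counts. MMP1 was therefore at least 11.7-fold lower with the MEK inhibitor than in non-invasive cells (edgeR adjusted p = 0.0278), but leaving out any of the libraries of these groups except the fourth non-invasive one brought the adjusted p to between 0.0545 and 0.0921. With cetuximab it was 12.7-fold lower than in non-invasive cells (counting interval 4.03 to 64.1), with an edgeR adjusted p of 0.0823 over all libraries and 0.03 without the shallow library.

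Whether EGF raised MMP1 in Kyse30 depended on serum-free library 4. Non-invasive cells were above serum-free spheroids by 1.99 ± 1.11 on the log2 scale, with an edgeR adjusted p of 0.273. Without that library the serum-free group had 0 counts and the adjusted p was 0.0408. The response in Kyse30 minus that in FaDu was -6.78 ± 2.04 log2 units (edgeR adjusted p = 0.0193), and without the same library it was -2.41 with an adjusted p of 0.957. The FaDu side of this difference rests on the 2 serum-free counts. The response of MMP1 to EGF was thus called smaller in Kyse30 only with all 7 counts of that library in.

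**Figure D2:**
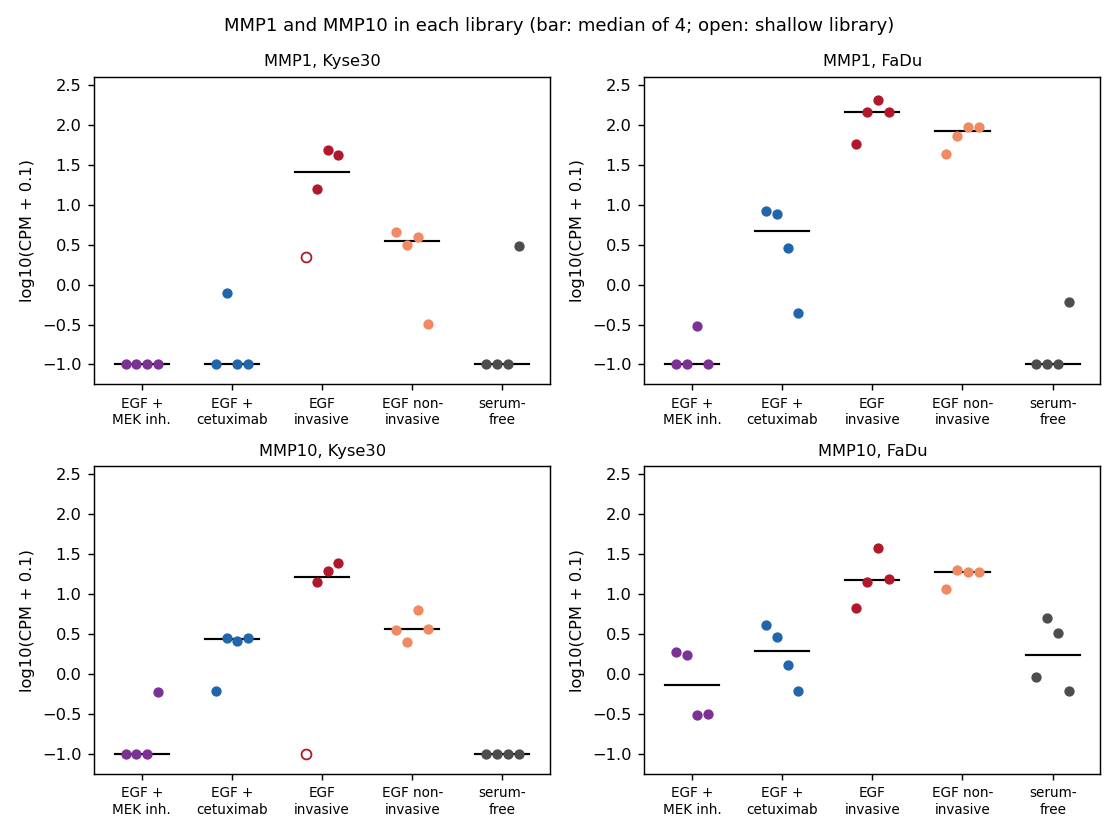
Levels of MMP1 (top) and MMP10 (bottom) in each library of Kyse30 (left) and FaDu (right), as log10(CPM + 0.1), so that a library with 0 counts sits at -1. Bars are medians of 4 libraries and the open circle is the shallow Kyse30 library. In FaDu both EGF groups stand above the drug and serum-free groups for both genes, and in Kyse30 the 3 deeper invasive libraries stand highest.

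MMP10, the stromelysin, followed MMP1 in FaDu with a smaller range. Invasive cells had 6.70, 14.1, 38.2 and 15.55 CPM, non-invasive cells 11.4, 20.3, 18.95 and 19.1 CPM, and serum-free spheroids 0.817, 4.93, 3.12 and 0.504 CPM. Each non-invasive library was above each serum-free library. The log2 fold change with EGF was 2.81 ± 0.62 (edgeR adjusted p = 0.00063). Invasive and non-invasive cells overlapped fully, at 18.65 ± 13.6 and 17.4 ± 4.05 CPM (SD, n = 4 each), with a log2 difference of 0.09 ± 0.52 and an adjusted p of 0.963 by edgeR.

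Either drug brought MMP10 in FaDu into or below the serum-free range. It had 1.76, 1.61, 0.207 and 0.213 CPM with the MEK inhibitor and 4.02, 2.835, 1.205 and 0.516 CPM with cetuximab. All 8 of these libraries lay below all non-invasive libraries. The log2 fold change against non-invasive cells was -4.29 ± 0.71 with the MEK inhibitor (edgeR adjusted p = 7.11e-05) and -3.07 ± 0.62 with cetuximab (edgeR adjusted p = 0.00214). The drugs did not differ beyond the spread for MMP10, at -1.215 ± 0.82 for the MEK inhibitor against cetuximab and an edgeR adjusted p of 0.326. With cetuximab it stood -0.26 ± 0.71 log2 units from serum-free spheroids (edgeR adjusted p = 0.796).

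In Kyse30, MMP10 had no count in any serum-free library and appeared with EGF. Invasive cells had 0, 14.0, 19.5 and 24.4 CPM, where the 0 is the shallow library, and non-invasive cells had 3.46, 2.38, 6.16 and 3.61 CPM. The 3 deeper invasive libraries again lay above every non-invasive library. The non-invasive cells held 54 counts against 0 in serum-free spheroids, at least 12.7-fold higher at the floor of 3 counts over the group (edgeR adjusted p = 0.00232). Invasive cells exceeded non-invasive cells by 2.00 ± 0.70 log2 units with an edgeR adjusted p of 0.217. With the shallow library left out, invasive cells averaged 19.3 ± 5.204 CPM (SD, n = 3) against 3.90 ± 1.60 CPM in non-invasive cells (SD, n = 4), the log2 fold change was 2.32 ± 0.62 and the edgeR adjusted p 0.0456. Over 18 alternatives the adjusted p ran from 0.0456 to 1, with 2 under 0.05.

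MMP10 in Kyse30 fell with the MEK inhibitor and was not called with cetuximab. The MEK inhibitor left 2 counts, both in 1 library (0.498 CPM), whereas cetuximab spheroids kept 0.518, 2.76, 2.47 and 2.75 CPM. The first of these groups lay below the second in CPM, but MEK inhibitor library 4 and cetuximab library 1 held 2 counts each and differed by scaling alone. The cetuximab libraries overlapped the non-invasive ones. MMP10 was 24.2-fold lower with the MEK inhibitor than in non-invasive cells (counting interval 6.38 to 205; edgeR adjusted p = 0.00828). Cetuximab against non-invasive cells gave -0.84 ± 0.72 log2 units and an edgeR adjusted p of 0.603. The ratio between the drugs was 17.0-fold lower with the MEK inhibitor (counting interval 4.39 to 145.8). Its edgeR adjusted p was 0.0902 over all libraries, where none of the 7 MMP genes was called beside 1.18% of all genes, 2 had an unadjusted p under 0.05, and DESeq2 called 1 and limma-voom 0. Without the shallow library it was 0.0136, and MMP10 and MMP14 were called beside 4.66% of all genes. With cetuximab MMP10 was at least 8.92-fold higher than in serum-free spheroids, the 1 MMP gene called there beside 3.13% of all genes (edgeR adjusted p = 0.0275). Without the shallow library it was again the 1 called, beside 15.1% of all genes. That call was lost (adjusted p up to 0.0753) when any library of these groups other than the first cetuximab one was left out.

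The difference in response between the lines was itself tested for both genes. For invasive against non-invasive cells, Kyse30 minus FaDu was 2.57 ± 0.85 for MMP1 (edgeR adjusted p = 0.295) and 1.97 ± 0.87 for MMP10 (edgeR adjusted p = 0.473). No MMP gene was called in that comparison by edgeR, DESeq2 or limma-voom, beside 0.182% of all genes by edgeR (0.585% without the shallow library), and 3 had an unadjusted p under 0.05. The 95% intervals were 0.89 to 4.24 for MMP1 and 0.27 to 3.67 for MMP10. For EGF against serum-free medium 2 were called (MMP1 and MMP15), beside 15.7% of all genes, and 2 without the shallow library, beside 24.7%. MMP10 was not among them (edgeR adjusted p = 0.156), and with 0 counts in serum-free Kyse30 its fitted difference is not printed. For cetuximab against non-invasive cells, Kyse30 minus FaDu was 2.27 ± 0.95 for MMP10 (edgeR adjusted p = 0.315).

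MMP14, a membrane-anchored collagenase, had far higher levels in Kyse30 than in FaDu. Serum-free spheroids had 48.7, 29.2, 49.1 and 59.3 CPM in Kyse30 and 1.63, 2.815, 4.26 and 1.51 CPM in FaDu. The lines did not overlap, and the difference was 4.14 ± 0.49 log2 units (edgeR adjusted p = 4.32e-09). In Kyse30 the mean level was highest with cetuximab, at 128, 64.6, 55.0 and 65.6 CPM, against 18.2, 46.1, 32.7 and 26.15 CPM in non-invasive cells. All 4 cetuximab libraries were above all 4 non-invasive ones. The log2 fold change of 1.34 ± 0.41 had an edgeR adjusted p of 0.0598 over all libraries, and without the shallow library it was 1.34 ± 0.27 with an adjusted p of 0.00115. Over 18 alternatives the adjusted p ran from 0.00115 to 0.284, with 6 under 0.05.

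No comparison of invasive with non-invasive cells, or of non-invasive cells with serum-free spheroids, called MMP14. The 3 deeper invasive libraries of Kyse30 had 22.4, 21.97 and 28.8 CPM and the shallow one 0, within the non-invasive range apart from that 0. Non-invasive cells stood -0.59 ± 0.41 log2 units from serum-free spheroids (edgeR adjusted p = 0.398). The MEK inhibitor libraries had 31.4 to 48.1 CPM, and their log2 difference from non-invasive cells was 0.42 ± 0.41 (edgeR adjusted p = 0.714). Against cetuximab the MEK inhibitor gave -0.92, with an edgeR adjusted p of 0.508 over all libraries and 0.0422 without the shallow library. In FaDu MMP14 stayed between 0.692 and 7.74 CPM in all 20 libraries, and no comparison called it.

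MMP15, another membrane-type enzyme, was lower with EGF and higher with the MEK inhibitor in Kyse30, the reverse of MMP10. Its CPM was 16.6, 10.98, 8.57 and 9.96 with the MEK inhibitor, 6.997, 5.52, 4.945 and 7.26 with cetuximab, 3.775, 2.17, 0.77 and 2.93 in non-invasive cells and 6.23, 10.6, 19.65 and 7.20 in serum-free spheroids. Non-invasive cells lay below each of these other 3 groups with no overlap. The invasive cells were as low, at 0 in the shallow library and 2.18, 2.85 and 3.39 CPM in the deeper ones, and overlapped the non-invasive cells. The log2 fold change was -2.14 ± 0.50 for non-invasive cells against serum-free spheroids (edgeR adjusted p = 0.00548) and 2.22 ± 0.50 for the MEK inhibitor against non-invasive cells (edgeR adjusted p = 0.00838). Cetuximab against non-invasive cells gave 1.32 ± 0.50 with an edgeR adjusted p of 0.137, and 0.0483 without the shallow library.

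No comparison within FaDu called MMP15. Its libraries there had 6.69 to 14.9 CPM with the MEK inhibitor, 12.96 to 19.1 CPM with cetuximab, 3.11 to 9.43 CPM in invasive cells, 5.82 to 11.9 CPM in non-invasive cells and 8.45 to 15.5 CPM in serum-free spheroids. Every cetuximab library was above every invasive and every non-invasive one, and the edgeR adjusted p against non-invasive cells was 0.114. The other pairs of groups overlapped. Tested between lines, the EGF response in Kyse30 minus that in FaDu was -1.79 ± 0.58 (edgeR adjusted p = 0.0276), and the MEK inhibitor response was 1.92 ± 0.57 higher in Kyse30 (edgeR adjusted p = 0.0386). The second was the 1 MMP gene called of 7 in its comparison, beside 5.10% of all genes, and 1 was called without the shallow library, beside 11.4%. Leaving out a single library ended the EGF call in 6 of 16 cases, with an adjusted p of up to 0.107, and the MEK inhibitor call in 9 of 16 cases, with an adjusted p of up to 0.0993. For EGF these libraries were non-invasive 1 and serum-free 2 and 4 of FaDu, and non-invasive 2 and 3 and serum-free 3 of Kyse30. For the MEK inhibitor they were non-invasive 1, 3 and 4 and MEK inhibitor 1 and 2 of FaDu, and non-invasive 2 and 3 and MEK inhibitor 1 and 2 of Kyse30.

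MMP16, the remaining membrane-type enzyme, was nearly absent from Kyse30 cells under EGF and present with either drug. The MEK inhibitor libraries had 5.08, 4.55, 1.82 and 6.47 CPM, the cetuximab libraries 4.41, 5.06, 10.1 and 4.51 CPM, and the non-invasive libraries 0.944, 0.217, 0 and 0.451 CPM. Serum-free spheroids had 0.366, 4.50, 3.93 and 2.54 CPM, and the invasive cells held 2 counts in all. Both drug groups lay above all EGF-only libraries, and 1 serum-free library lay among the non-invasive ones. Against non-invasive cells the log2 fold change was 3.35 ± 0.80 with the MEK inhibitor (edgeR adjusted p = 0.0132) and 3.78 ± 0.80 with cetuximab (edgeR adjusted p = 0.00545). Leaving out non-invasive library 2 or MEK inhibitor library 4 brought the MEK inhibitor value to 0.0561 and 0.0506. Non-invasive cells stood -2.70 ± 0.83 from serum-free spheroids (edgeR adjusted p = 0.0313), a call that was lost without non-invasive library 2, 3 or 4 or serum-free library 2 or 3, with adjusted p values between 0.0724 and 0.0951. limma-voom (0.0562) and the replicate block (0.0664) also ended it. These values rest on 6 counts in the non-invasive cells. CDH5, the 1 endothelial marker in the table of 4, was also lower in both EGF-only groups of Kyse30 than with either drug. Unlike MMP16, it had its highest mean in serum-free spheroids. It had 8.71 to 12.98 CPM with the MEK inhibitor, 11.9 to 28.6 CPM with cetuximab, 0 to 2.80 CPM in invasive cells, 3.775 to 6.93 CPM in non-invasive cells and 16.4 to 34.6 CPM in serum-free spheroids. Non-invasive libraries 1 and 3 of Kyse30 also held more of the nuclear transcript MALAT1, 6.27% and 9.63% of the library, against 1.68% and 1.91% in libraries 2 and 4. The part of either in these results was not tested.

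In FaDu MMP16 was not called with cetuximab against non-invasive cells. It had 2.07 to 4.15 CPM with the MEK inhibitor, 0.6025 to 1.89 CPM with cetuximab, 0 to 2.87 CPM in invasive cells, 1.12 to 3.87 CPM in non-invasive cells and 3.28 to 7.38 CPM in serum-free spheroids. Cetuximab against non-invasive cells gave -0.82 ± 0.62 (edgeR adjusted p = 0.489). The response to cetuximab in Kyse30 minus that in FaDu was 4.64 ± 1.01 log2 units (edgeR adjusted p = 0.00799), the 1 MMP gene called of 7 there beside 1.31% of all genes. It was called in all 24 alternatives, with adjusted p values from 0.00042 to 0.0385. With cetuximab MMP16 in FaDu stood -1.95 ± 0.60 log2 units from serum-free spheroids (edgeR adjusted p = 0.0105), with no overlap between the groups.

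MMP28, the secreted keratinocyte enzyme, had its lowest levels under the MEK inhibitor in Kyse30, and whether this was called turned on the shallow library and on the tool. The MEK inhibitor libraries had 5.96, 5.36, 4.15 and 4.23 CPM, the cetuximab libraries 6.997, 12.2, 4.33 and 4.26 CPM, the non-invasive libraries 12.9, 15.4, 8.08 and 16.2 CPM and the serum-free libraries 10.99, 10.9, 12.2 and 14.8 CPM. The 3 deeper invasive libraries had 21.8, 21.2 and 19.6 CPM, above all other libraries of the line, and the shallow one had 0. The MEK inhibitor group lay below the non-invasive and the serum-free groups with no overlap. Against non-invasive cells its log2 fold change was -1.42 ± 0.49 (edgeR adjusted p = 0.105), and without the shallow library -1.42 ± 0.35 (edgeR adjusted p = 0.00632). DESeq2 called it with all libraries in (adjusted p = 0.0212), and over 18 alternatives the adjusted p ran from 0.00596 to 0.295, with 4 under 0.05. Against serum-free spheroids none of the 7 genes was called over all libraries, beside 3.90% of all genes, 2 had an unadjusted p under 0.05, and DESeq2 called 1 and limma-voom 0. MMP28 was called there without the shallow library at -1.30 ± 0.36 (edgeR adjusted p = 0.0134), beside 15.4% of all genes.

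In FaDu MMP28 was near its floor, with 6 to 34 counts per group. The cetuximab libraries held 0.6705 to 2.75 CPM and the non-invasive libraries 0.242 to 0.892 CPM. Tested in the fit of both lines, its response to cetuximab in Kyse30 minus that in FaDu was -2.48 ± 0.84 (edgeR adjusted p = 0.155). Without the shallow library it was -2.47 ± 0.73 (edgeR adjusted p = 0.0425), when MMP16 and MMP28 were called beside 3.73% of all genes.

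MMP2, the gelatinase, was detected in Kyse30 and was called there in no comparison of treatments. FaDu held 1 MMP2 count over its 20 libraries. Kyse30 had 0.26 to 4.02 CPM with the MEK inhibitor, 3.50 to 6.48 CPM with cetuximab, 0 to 3.66 CPM in invasive cells, 0.77 to 3.15 CPM in non-invasive cells and 1.695 to 5.50 CPM in serum-free spheroids. Every cetuximab library was above every non-invasive one, but the log2 fold change of 1.14 ± 0.63 had an edgeR adjusted p of 0.353. Between the lines at serum-free, MMP2 was 41.3-fold higher in Kyse30 than in FaDu (counting interval 6.93 to 1679, from library totals; edgeR adjusted p = 0.000228, and 0.242 with the replicate numbers as a block).

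At serum-free baseline 4 of 7 MMP genes were called between the lines, beside 43.5% of all genes. MMP14, MMP2 and MMP28 were higher in Kyse30, MMP28 at 12.2 ± 1.83 CPM in Kyse30 and 0.6335 ± 0.40 CPM in FaDu (SD, n = 4 each; log2 difference 4.18 ± 0.65, edgeR adjusted p = 1.01e-06). MMP10 was at least 9.87-fold lower in Kyse30, with 0 counts against 36 in FaDu (edgeR adjusted p = 0.00128). MMP15 had a log2 difference of -0.07 ± 0.39 (edgeR adjusted p = 0.906), with a 95% interval from -0.83 to 0.69. MMP16 had a difference of -0.75 ± 0.63 (edgeR adjusted p = 0.348) and MMP1 7 counts against 2.

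**Figure D3:**
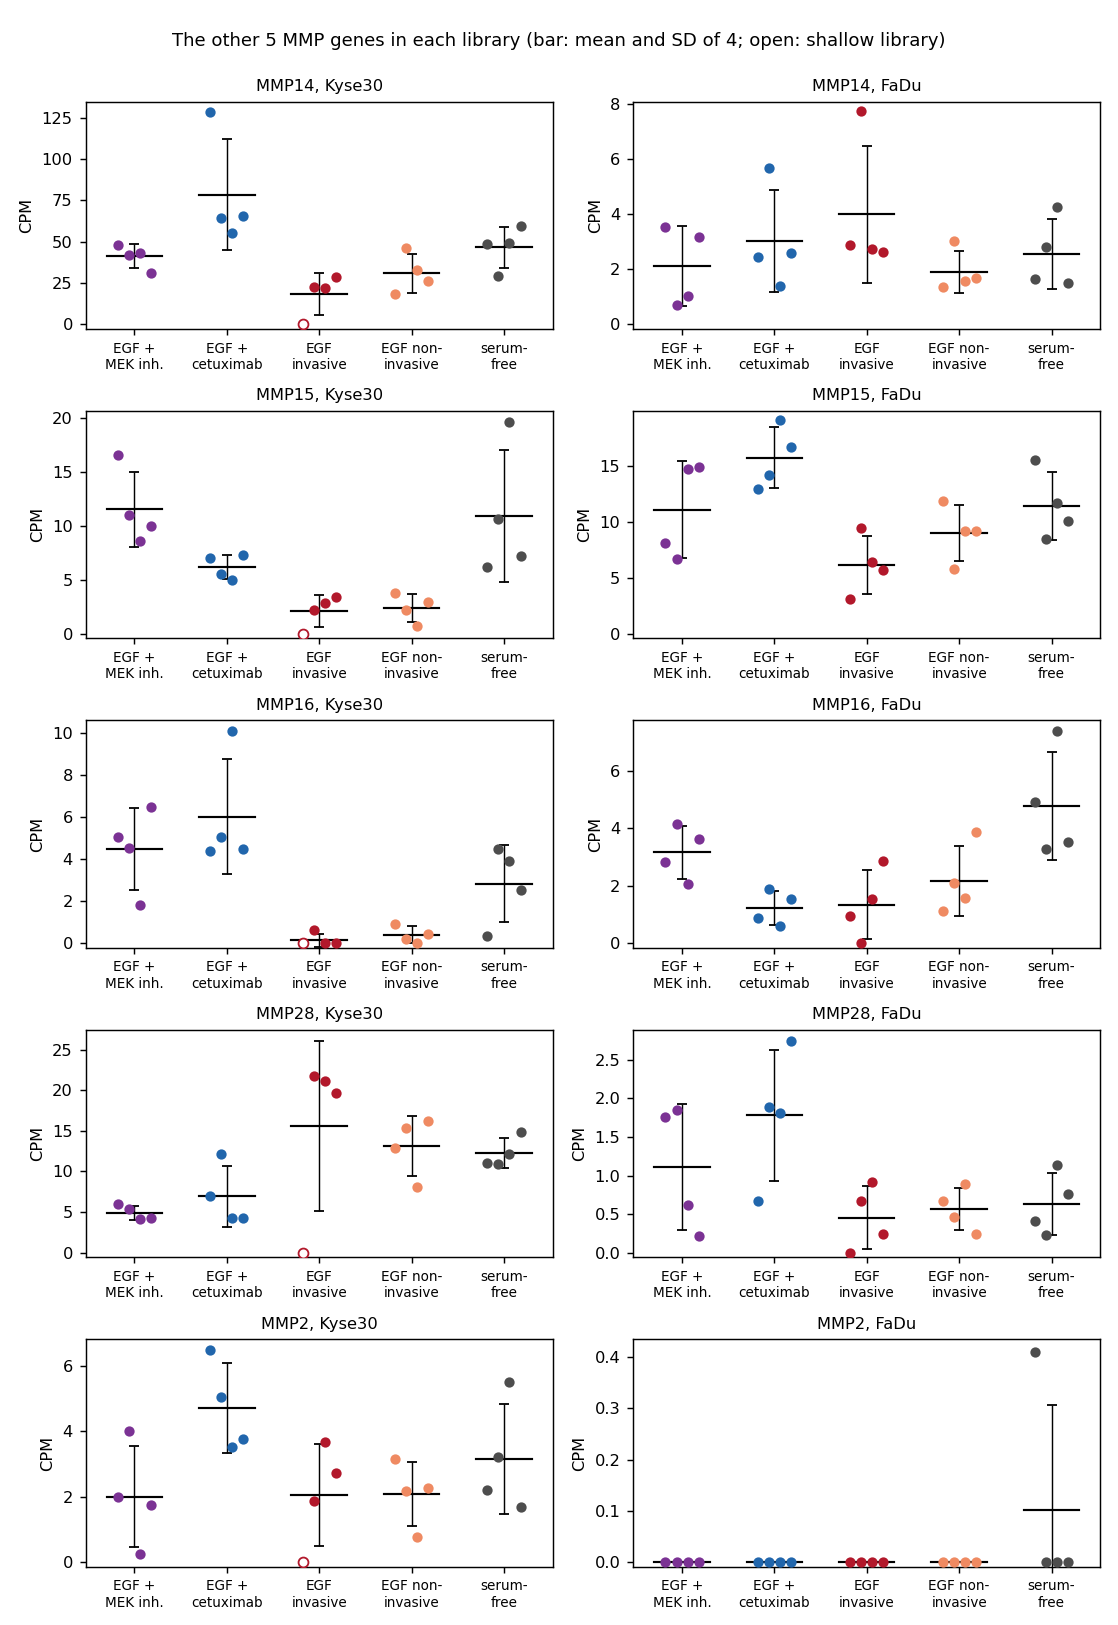
CPM of MMP14, MMP15, MMP16, MMP28 and MMP2 in each library of Kyse30 (left) and FaDu (right), with the mean and SD of 4 libraries as bars and the shallow Kyse30 library as an open circle. Each panel has its own axis. In Kyse30 the cetuximab group has the highest mean of MMP14, and both drug groups stand above the 2 EGF-only groups for MMP15 and MMP16.

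The inhibitors of MMPs moved with EGF in FaDu. Of a list of 8 inhibitor genes, chosen with earlier results of these data known, 5 were in the table and all 5 were called in FaDu between non-invasive cells and serum-free spheroids, 3 higher and 2 lower, beside 50.0% of all genes called. TIMP1, which inhibits most secreted MMPs, averaged 503 ± 72.6 CPM in non-invasive cells and 59.7 ± 1.98 CPM in serum-free spheroids (SD, n = 4 each), a log2 fold change of 3.08 ± 0.18 (edgeR adjusted p = 4.1e-13). TFPI2, a serine protease inhibitor that also binds MMPs, rose by 1.66 log2 units and the proteoglycan SPOCK1 by 4.03. TIMP3, the matrix-bound inhibitor, went the other way, at 3.47 ± 1.49 CPM in non-invasive cells and 46.1 ± 5.11 CPM in serum-free spheroids (SD, n = 4 each; log2 fold change -3.72 ± 0.39, edgeR adjusted p = 1.54e-08). TIMP2, which takes part in the activation of MMP2 by MMP14, fell by 1.63. The median over the 5 was 1.66, beside -0.02 over all genes. With the MEK inhibitor all 5 were called in the opposite direction against non-invasive cells, beside 29.7% of all genes, TIMP1 at -3.30, TFPI2 at -2.89, TIMP2 at 1.28 and TIMP3 at 1.46, while SPOCK1 had 0 counts against 163 in non-invasive cells. The median over the 5 was then -2.89, beside 0.03 over all genes. Cetuximab lowered 2 of them, beside 8.56% of all genes, TIMP1 with a log2 fold change of -1.975 and TFPI2 with -2.13, with a median of -1.54 over the 5 and 0.05 over all genes. Both drug comparisons share the non-invasive libraries with the EGF comparison, here and for the lists below. Opposite changes with EGF and with a drug are therefore not independent.

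Over all libraries Kyse30 called 1 of the 5 inhibitors in each of the comparisons for EGF, the MEK inhibitor, cetuximab and invasive cells. The shares of all genes were 12.9%, 4.56%, 4.93% and 0.409%, and TIMP1 was not among the calls. Without the shallow library EGF and cetuximab again gave 1 each, beside 27.8% and 17.1% of all genes. The MEK inhibitor then gave 1 higher and 2 lower, beside 14.4%, and invasive cells 0, beside 2.10%. SPOCK1 was lower in non-invasive cells than in serum-free spheroids at a log2 fold change of -0.93 ± 0.20 and higher with cetuximab than in non-invasive cells by 1.41 ± 0.20. TIMP3 averaged 11.4 ± 11.1 CPM in invasive cells and 78.25 ± 52.4 CPM in non-invasive cells (SD, n = 4 each), with a log2 fold change of -2.55 ± 0.55 and an edgeR adjusted p of 0.034. The adjusted p was 0.0603 without the shallow library. With the MEK inhibitor TIMP3 averaged 23.1 ± 6.95 CPM (log2 fold change -1.76 ± 0.51 against non-invasive cells, edgeR adjusted p = 0.0446). Tested between lines, the EGF response differed for all 5 inhibitors, beside 15.7% of all genes called (24.7% without the shallow library). Kyse30 minus FaDu was -2.66 ± 0.45 for TIMP1 and 3.24 ± 0.67 for TIMP3.

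Among 18 activators and surface partners of MMPs, 15 were in the table. In FaDu 8 were higher and 4 lower in non-invasive cells than in serum-free spheroids, with a median of 0.65 over the 15 and 50.0% of all genes called. PLAUR, the receptor that holds the plasminogen activator urokinase, rose by 4.17, ITGA2, the collagen-binding integrin chain that also binds MMP1, by 3.64, CD44, a hyaluronan receptor that docks MMPs, by 3.43 and ITGB1 by 1.87 log2 units. LCN2, which forms a complex with MMP9, fell by 5.08, the proprotein convertase PCSK5 by 1.58, ITGAV by 1.43 and the lysosomal protease CTSB by 1.23. With the MEK inhibitor 6 were lower and 2 higher than in non-invasive cells, beside 29.7% of all genes, among them PLAUR at -3.67, ITGA2 at -3.58, CD44 at -2.89, ITGB1 at -1.23 and FURIN, a convertase that activates membrane-type MMPs, at -1.13, with LCN2 at 2.58 and ITGAV at 1.29 higher. Cetuximab lowered 4 and raised 1, beside 8.56% of all genes, with ITGA2 at -1.76.

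In Kyse30 the same list gave 4 higher and 1 lower with EGF, beside 12.9% of all genes (8 and 1 without the shallow library, beside 27.8%), with a median of 0.96 over the 15 beside 0.03 over all genes, and PLAUR at 3.79, urokinase (PLAU) at 2.18, ITGA2 at 1.63 and CD44 at 1.47 above serum-free spheroids. Against non-invasive cells the MEK inhibitor lowered 2, CD44 by 2.295 and ITGA2 by 1.89, beside 4.56% of all genes, and cetuximab lowered 2, PLAU by 3.53 and PLAUR by 3.23, beside 4.93%. Each drug lowered 5 of the 15 without the shallow library, beside 14.4% of all genes with the MEK inhibitor and 17.1% with cetuximab. LCN2 was lower in invasive than in non-invasive cells in both lines. In Kyse30 it fell by 3.57 log2 units (edgeR adjusted p = 0.0469, and 0.114 without the shallow library). In FaDu it averaged 0.22 ± 0.152 CPM in invasive cells, from 3 counts in all, and 2.29 ± 1.27 CPM in non-invasive cells (SD, n = 4 each; edgeR adjusted p = 0.0066).

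ETS factors and the AP-1 subunit FOSL1, known to act on MMP genes, were higher with EGF in FaDu, while other AP-1 subunits were lower. Of 20 AP-1, ETS and other factors, 18 were in the table, and 6 were higher and 5 lower in non-invasive cells than in serum-free spheroids of FaDu, with a median of 0.22 over the 18. These 11 of 18 stand beside 50.0% of all genes called, so the share is near the background. The higher ones included the ETS factors ETV4 (5.80), ETS1 (4.08), ETV5 (3.87) and ETV1 (3.09) and the AP-1 subunit FOSL1 (3.96), all as log2 fold changes. The AP-1 subunits FOS (-2.75), FOSL2 (-2.18), FOSB (-1.66) and JUN (-1.09) were lower. FOSL1 averaged 15.3 ± 12.3 CPM with the MEK inhibitor, 81.4 ± 39.7 CPM with cetuximab, 187 ± 18.2 CPM in invasive cells, 144 ± 22.6 CPM in non-invasive cells and 9.36 ± 2.99 CPM in serum-free spheroids of FaDu (SD, n = 4 each). Against non-invasive cells the MEK inhibitor lowered ETV4 by 4.49, ETS1 by 3.45, FOSL1 by 3.26, ETV1 by 2.87 and ETV5 by 2.72 and raised FOSL2 by 1.80, while cetuximab lowered ETS1 by 2.37 and raised FOSL2 by 1.12.

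In Kyse30, FOSL1 and ETS1 rose with EGF and fell with either drug. With EGF 4 of the 18 were higher and 4 lower, beside 12.9% of all genes, with the MEK inhibitor 2 were lower, beside 4.56%, and with cetuximab 1 was higher and 4 lower, beside 4.93%. Without the shallow library 5 were higher and 4 lower with EGF, beside 27.8% of all genes. The drug counts were then 2 higher and 3 lower with the MEK inhibitor and 2 higher and 7 lower with cetuximab, beside 14.4% and 17.1%. FOSL1 stood 2.43 ± 0.44 above serum-free spheroids in non-invasive cells (edgeR adjusted p = 0.000448), and against non-invasive cells it fell by 2.16 with the MEK inhibitor and by 2.17 with cetuximab. ETS1 was 2.35 above serum-free spheroids and fell by 2.21 with the MEK inhibitor and by 2.25 with cetuximab. RUNX1 (4.61) and ATF3 (1.53) were also higher with EGF, and FOS (-2.30), RUNX2 (-1.62), ETV4 (-1.31) and FOSB (-1.28) lower. Cetuximab raised ETV4 by 2.06 over non-invasive cells and lowered ATF3 by 1.70, with JUN at -1.115. ETV4 thus averaged 96.7 ± 30.9 CPM with cetuximab, 23.1 ± 4.54 CPM in non-invasive cells and 57.5 ± 3.10 CPM in serum-free spheroids of Kyse30 (SD, n = 4 each), and its EGF response differed from that in FaDu by -7.09 ± 0.64 log2 units (edgeR adjusted p = 2.03e-10).

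**Figure D4:**
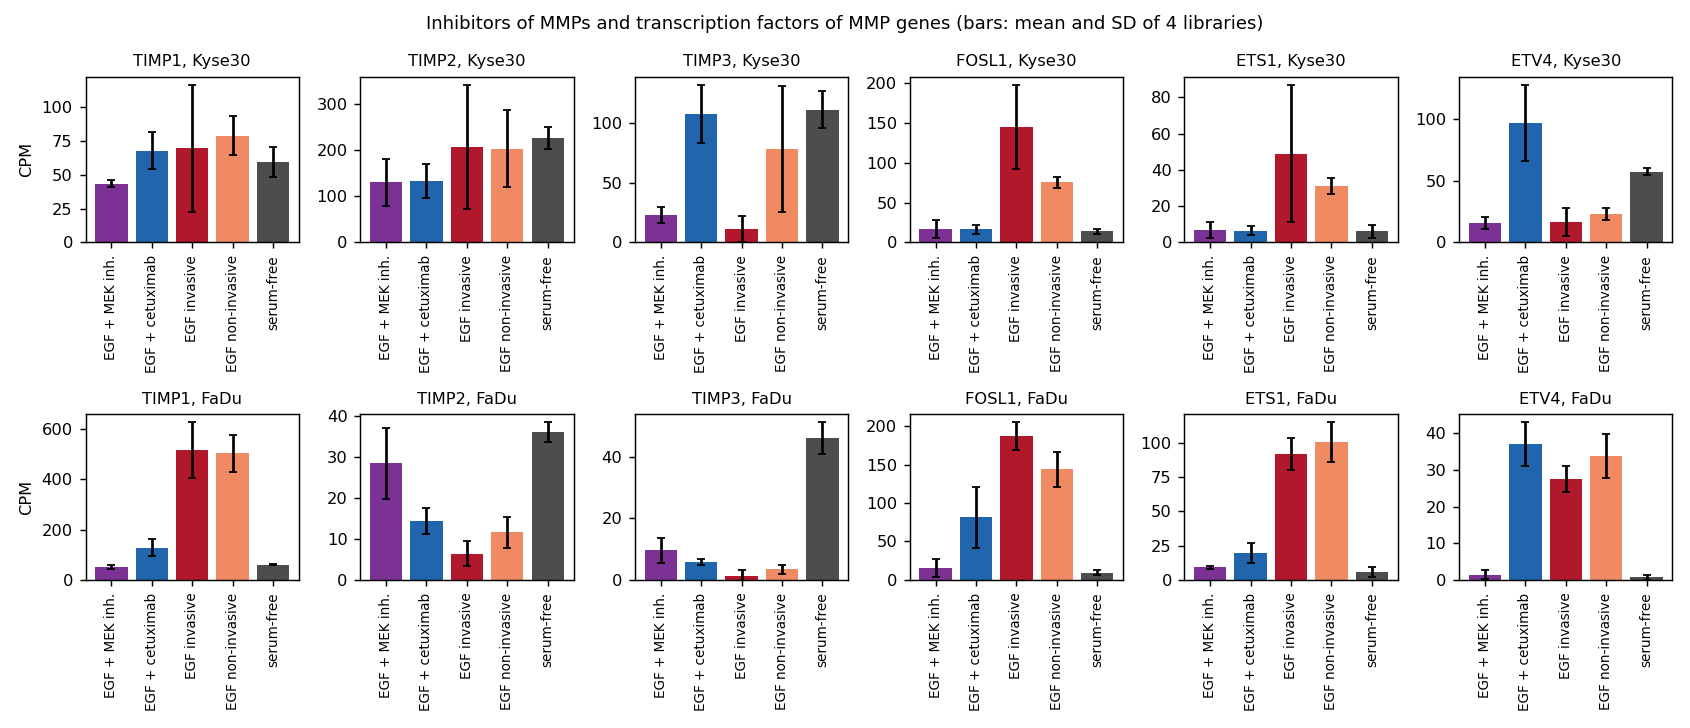
Mean CPM (bars: SD of 4 libraries) of the inhibitors TIMP1, TIMP2 and TIMP3 and of the transcription factors FOSL1, ETS1 and ETV4 by group, in Kyse30 (top) and FaDu (bottom), each panel with its own axis. In FaDu TIMP1, FOSL1 and ETS1 are high in both EGF-only groups and TIMP3 is high in serum-free spheroids, and in Kyse30 ETV4 is highest with cetuximab.

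Among other metalloproteinases, ADAM12, ADAMTS1 and ADAM8 were higher with EGF in FaDu and lower with either drug. Of 28 such genes 13 were in the table and 10 were tested in FaDu, where 4 were higher and 2 lower in non-invasive cells than in serum-free spheroids, a share near the 50.0% of all genes. ADAM12 (4.49), ADAMTS1 (4.13), ADAM8 (2.80) and ADAMTS6 (1.145) were higher as log2 fold changes, and ADAMTS13 (-2.39) was the larger of the lower ones. The 4 higher ones were all lower with each drug than in non-invasive cells, beside 29.7% of all genes called with the MEK inhibitor and 8.56% with cetuximab. ADAM12 was lower by 4.50 with the MEK inhibitor and by 2.56 with cetuximab. The 4 were named for being high in the non-invasive libraries, which both drug comparisons share, so the rise and the falls are not independent. Of 11 tested in Kyse30, 3 were higher and 1 lower with EGF, beside 12.9% of all genes (4 and 2 without the shallow library, beside 27.8%). ADAM19 (2.165) and ADAM9 (1.16) were higher, as was ADAMTS6, with 39 counts in non-invasive cells and 1 in serum-free spheroids, while the aggrecanase ADAMTS5 was lower, with 0 counts against 22. ADAMTS5 was also the 1 called against non-invasive cells with the MEK inhibitor, beside 4.56% of all genes, and with cetuximab, beside 4.93%. It had 180 counts under the MEK inhibitor, 27 with cetuximab and 0 in non-invasive cells (edgeR adjusted p = 0.000281 and 0.0209). With the shallow library left out, 2 were higher and 1 lower with each drug, beside 14.4% of all genes with the MEK inhibitor and 17.1% with cetuximab.

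Among the genes most like MMP1 across the 40 libraries were IGFN1, UPP1, SERPINB2 and ITGA2, with Pearson correlations of 0.945, 0.942, 0.912 and 0.911 of log2 CPM after the mean of each line was subtracted. The comparison covered 11458 genes. Those most like MMP10 were TRPV3 (0.859), IL1RL1 (0.843), TMEM154 (0.842), PTAFR (0.842) and AMOTL1 (0.839). MMP1 and MMP10 had a correlation of 0.802 with each other, which placed MMP10 at rank 72 for MMP1. MMP14, MMP15 and MMP16 had correlations of -0.13, -0.49 and -0.58 with MMP1. All values come from the same libraries, so they describe shared patterns over the groups and are given without a test.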

How the data were processed

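Libraries were made with a 3′ mRNA tag kit (QuantSeq), per the labels' protocols, and no molecular identifiers are named there. Reads were aligned with STAR and counted with HTSeq on GRCh38 (hg38), per the submitters' processing notes, which name no versions. The authors deposited raw counts of 12655 genes in 40 libraries, and the rule that chose these genes is not stated. Counts were tested with edgeR 4.0.16 in R 4.3.3 (TMM scaling, filterByExpr, robust quasi-likelihood F test), with the 20 libraries of a line in 1 fit and all 40 for differences between lines, and p-values were Benjamini-Hochberg adjusted over all tested genes. Genes tested numbered 11976 in Kyse30 (12072 without the shallow library), 12131 in FaDu and 12652 in the fit of both lines. A standard error is the log2 fold change divided by the square root of F. Ratios for groups of 1 to 3 counts were taken over summed library totals without TMM scaling and have exact 95% intervals. Groups at 0 were set to a floor of 3 counts over the group. Intervals and floors cover counting error only. Alternatives were other scalings and filters, DESeq2 1.42.0, limma-voom (limma 3.58.1), other sets of libraries, a replicate block and leaving out each library. Whether replicate numbers pair the samples is not stated, and the main fits used no pairing. Over 40 same-numbered pairs of libraries per line, deviations had a mean correlation of 0.0214 in Kyse30 (highest 0.349) and 0.00888 in FaDu (highest 0.307). These means run over all pairs of groups, so they cannot exclude a pairing of 2 groups such as invasive and non-invasive cells. The labels do not say that replicates were separate cultures, so p-values measure the spread between these libraries, which may be technical. No 2 libraries of a group agreed within sampling noise (chi-square per degree of freedom 2.39 to 63.6). The MMP genes, the gene lists and the rule of naming every MMP gene and each gene of the lists called with an absolute log2 fold change of 1 or more in the comparison described were chosen with earlier results of these data known. The edgeR script was tested on simulated data in which only the invasive group was changed from each gene's mean level. Genes near 0 in some groups and high in others were not simulated. A gene that the likeness ranking also named is not reported here. SPOCK1 in Kyse30 with EGF was named outside the rule, after its value was seen.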

Additional observations from a re-analysis of the deposited data

Results flagged for a closer look

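A library stood apart from the other 3 of its group for 13 of 64 sets of 4 values by Dixon's criterion. Its rate of about 1 in 20 holds for normal values and not for counts near 0. A set with 3 libraries at 0 and 1 above 0 is always flagged, so the number flagged cannot show an excess of outlying libraries. Most were sets near 0 in which 1 library held the counts. For MMP1 these were 0.207 CPM in a MEK inhibitor library and 0.504 CPM in a serum-free library of FaDu, and 0.69 CPM in a cetuximab library and 2.97 CPM in a serum-free library of Kyse30. For MMP10 they were 0.498 CPM with the MEK inhibitor and a low 0.518 CPM with cetuximab in Kyse30, and a low 11.4 CPM in a non-invasive library of FaDu. MMP14 stood high at 128 CPM in a cetuximab library of Kyse30 and at 7.74 CPM in an invasive library of FaDu. MMP16 stood high at 10.1 CPM in a cetuximab library and at 0.622 CPM in an invasive library of Kyse30. MMP28 stood low at 0 CPM in the shallow invasive library of Kyse30, and MMP2 was at 0.409 CPM in 1 serum-free library of FaDu.

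Responses that differed between the lines by their own test, as log2 differences of Kyse30 minus FaDu, were those to EGF against serum-free medium for MMP1 (-6.78) and MMP15 (-1.79), to cetuximab against non-invasive cells for MMP16 (4.64) and to the MEK inhibitor against non-invasive cells for MMP15 (1.92).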

How the results depend on the processing

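Without a filter on low counts no result changed side. Counts of MMP genes called moved by more than 1.5 times as follows. With median-of-ratios scaling, cetuximab against non-invasive cells of Kyse30 gave 2 in place of 1, and a stricter filter left 1 in place of 2 for cetuximab against serum-free spheroids of FaDu. DESeq2 gave 3 for cetuximab against non-invasive cells, 1 for the MEK inhibitor against cetuximab and 1 for it against serum-free spheroids in Kyse30, and 2 for each of the line differences with cetuximab and with the MEK inhibitor. limma-voom gave 0 for the MEK inhibitor against cetuximab and 1 for cetuximab against serum-free spheroids in FaDu, and turned MMP10 in invasive against non-invasive cells of FaDu to -0.19. The replicate block left 0 for the line difference with the MEK inhibitor, and the labels do not say that replicate numbers pair the samples. Fits of the 2 groups alone gave 0 for the MEK inhibitor against cetuximab and 1 for cetuximab against serum-free in FaDu. In Kyse30 they gave 1 for non-invasive against serum-free, 2 for each drug against non-invasive, 0 for cetuximab and 1 for the MEK inhibitor against serum-free. One fit of 40 libraries gave 1 for invasive and 4 for cetuximab against non-invasive cells and 1 for the MEK inhibitor against cetuximab in Kyse30. Without the shallow library these were 2, 4 and 2, with 1 for the MEK inhibitor against serum-free and 2 for the line difference with cetuximab. Leaving out also the 2 non-invasive libraries high in MALAT1 gave 3 for cetuximab against non-invasive, 2 for the MEK inhibitor against cetuximab, 2 for cetuximab and 1 for the MEK inhibitor against serum-free, and 2 for the line difference with cetuximab. Leaving out single libraries gave 0 to 2 for invasive against non-invasive, 2 to 4 for the MEK inhibitor against non-invasive and 0 to 1 for cetuximab against serum-free in Kyse30, and 1 to 2 (EGF) and 0 to 1 (MEK inhibitor) for the line differences. It moved the log2 fold change of MMP10 in FaDu between -0.53 and 0.37 for invasive against non-invasive cells and between -0.84 and 0.43 for cetuximab against serum-free, and that of MMP1 in Kyse30 between -4.26 and 2.55 for cetuximab and between -4.74 and 0 for the MEK inhibitor against serum-free. The cause was not tested. Depth limits the values of groups with few counts: MMP1, MMP10 and MMP16 in Kyse30, and MMP1 with the MEK inhibitor or without EGF, MMP2 and MMP28 in FaDu.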
